A study of Mus musculus with 4 samples.

Results

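The genes described here are 30 genes of the oligodendrocyte lineage and of myelin. They were followed in the hippocampus of mice with and without repeated social defeat stress (R-SDS). The choice was made by name and not by a cut on their values, though with earlier results of these data known. Each of the 30 had 1 row of its own on the array, out of 19938 genes with a single symbol. The 4 samples came from hippocampi of male C57BL/6JJmsSlc mice aged 11 to 12 weeks, with 1 array per sample and no transgene or drug in either group. In the R-SDS group (2 arrays) the mouse met an aggressive male of the ICR strain for 10 min a day over 10 days and spent the rest of each day beside it behind a divider. Control mice (2 arrays) lived as changing pairs in divided cages and were not defeated. In the study's account the mice on the R-SDS arrays were susceptible ones, meaning that they kept away from an unfamiliar ICR mouse, but the sample labels give only the stress.

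Oligodendrocytes are the glial cells that wrap axons of the central nervous system in myelin, a stack of lipid-rich membrane that speeds conduction and feeds the axon. They arise throughout life from dividing precursors marked by the growth factor receptor Pdgfra, pass through a short stage in which Gpr17, Bcas1 and Enpp6 are high, and end as mature cells rich in myelin protein transcripts. Olig1, Olig2 and Sox10 are transcription factors of the whole lineage. In the hippocampus the mature cells are densest in the fibre tracts, such as the alveus and fimbria, which border the dissected tissue. The members were accordingly read in 4 stages, with 3 precursor, 4 newly formed, 3 lineage factor and 20 mature genes.

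Values below are log2 RMA values as deposited, in which a step of 1 is a doubling of the signal, and differences are R-SDS minus Control on that scale. The arrays correlated at 0.988 to 0.996 over the 21789 rows with a single symbol. Their spread went with the replicate number: the interquartile range over all rows was 3.34 and 3.37 in Control 1 and R-SDS 1, but 3.06 and 3.11 in Control 2 and R-SDS 2. Differences are therefore also given within each number, that is R-SDS 1 minus Control 1 for number 1 and R-SDS 2 minus Control 2 for number 2. On each array all 30 members lay above the lower quartile of the tested rows and 28 lay above the median. Most of the lineage was thus measured well away from the dim end of the scale. Neu4 and Nkx2-2 lay below the median on every array.

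Transcripts of oligodendrocytes differed little between R-SDS and Control mice. The group mean was lower in R-SDS mice for 24 of the 30 members, where 47.1% of all tested rows were lower, and the median difference was -0.08 against 0.01 over all tested rows. The largest difference was that of Aspa (-0.37), the enzyme that splits N-acetylaspartate for use in myelin lipid, followed by Olig2 (-0.25), Gjb1 (-0.25) and Neu4 (-0.24). The major myelin protein genes Mbp (-0.07), Mag (-0.07), Mobp (0.01) and Cnp (0.04) lay within 0.1 of the controls. Fewer oligodendrocytes and less RNA per oligodendrocyte cannot be told apart in whole tissue.

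By limma with Benjamini-Hochberg adjustment over all 21789 rows, 0 of the 30 members passed an adjusted p of 0.05 in either direction, and all had an adjusted p of 1. At an unadjusted p under 0.05 the count was again 0 of 30, where 1.01% of all rows passed (0.546% below and 0.468% above the controls), and the smallest unadjusted p among the members was 0.109, for Neu4. The difference was smaller than its own standard error for 24 members. The 95% intervals of the 30 members lay between -0.86 (lower limit of Aspa) and 0.59 (upper limit of Cnp), and each held 0. The median standard error of the members was 0.159. The size of change detectable in a single gene with 2 arrays against 2 was not calculated. The count of lower members moved with single arrays: it was 13 of 30 without Control 1, 16 without R-SDS 2, 23 without R-SDS 1 and 28 without Control 2. The sign of the difference held with any 1 array left out in 9 of the 30, near the 30.1% of all tested rows in which it held.

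**Figure D1:**
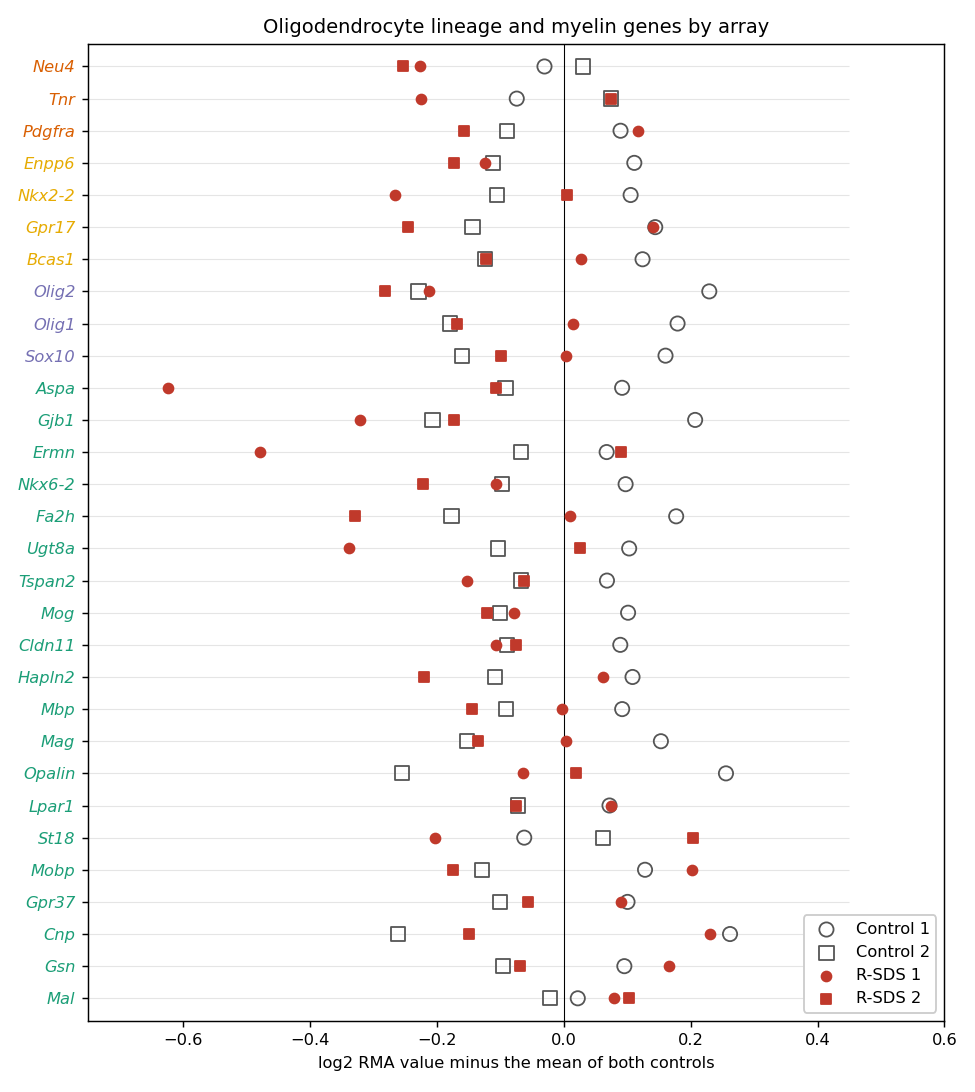
Log2 RMA value relative to the control mean (horizontal axis) for the 30 members (vertical axis, ordered and coloured by stage: precursor orange, newly formed yellow, lineage factors purple, mature green), with open circles and squares for Control 1 and Control 2 and filled red circles and squares for R-SDS 1 and R-SDS 2. Control 1 stands furthest to the right for 21 of the 30 genes, and R-SDS 1 stands far to the left of the other arrays for Aspa and Ermn.

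The groups did not overlap for 5 of the 30 members, with both R-SDS values below both controls for Neu4, Enpp6, Nkx6-2 and Aspa and above both for Mal. Over all tested rows 18.5% did not overlap, 9.06% with R-SDS lower and 9.41% with R-SDS higher, so that 5 of 30 is close to the share over the array. With 2 arrays against 2 the smallest exact two-sided permutation p is 0.333, and no single gene can pass such a test. After a further quantile normalisation of the arrays the count was 9, the additional genes being Olig2, Tspan2, Mog and Cldn11, each lower in R-SDS mice. The share of all tested rows without overlap was not counted after this normalisation, so the 9 cannot be read as an excess.

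Among the precursor genes, Neu4 had the most even difference. Neu4 encodes a sialidase, an enzyme that removes sialic acid from glycoproteins and gangliosides, and its transcript is high in precursors and in cells that begin to differentiate. Neu4 measured 6.33 and 6.39 in Control 1 and Control 2, and 6.13 and 6.11 in R-SDS 1 and R-SDS 2, a difference of -0.24 (SE 0.13). Both R-SDS values thus lay below both controls, and the gap to the controls exceeded the gap between mice of a group. All of these values lay below the median of the tested rows (6.53 to 6.58), so Neu4 was among the dimmer members. Its differences were -0.20 within number 1 and -0.28 within number 2, and it stayed between -0.27 and -0.21 with any 1 array left out. Neu4 had an unadjusted p of 0.0478 in limma once the replicate number was fitted as a block and of 0.0189 in the methods' t-test, with adjusted p of 0.96 and 1.

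Pdgfra, the receptor for platelet-derived growth factor that keeps precursors dividing, measured 8.87 and 8.69 in the controls and 8.90 and 8.63 in R-SDS mice (numbers 1 and 2 in that order, as in all pairs of values below). The groups overlapped almost fully, and the difference was -0.02 (SE 0.16, 95% interval -0.41 to 0.36). Tnr, the matrix protein tenascin-R that precursors share with some neurons, differed by -0.08 (SE 0.16), with equal values of 9.77 in Control 2 and R-SDS 2.

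Of the 4 genes of newly formed oligodendrocytes, Enpp6 was the 1 whose groups did not overlap. Enpp6 encodes a choline phosphodiesterase and is used as a marker of cells that have just left the precursor stage. It measured 7.09 and 6.87 in the controls and 6.86 and 6.81 in R-SDS mice, a difference of -0.15 (SE 0.14). Only Control 1 stood apart, since R-SDS 1 lay 0.01 below Control 2, and without Control 1 the difference of Enpp6 was -0.04. Gpr17, an orphan receptor that holds cells at the premyelinating stage, measured 8.01 and 7.72 in the controls and 8.01 and 7.62 in R-SDS mice (difference -0.05, SE 0.19). For Gpr17 the arrays grouped by number and not by stress. Nkx2-2, a homeobox factor of differentiating cells, differed by -0.13 (SE 0.16) and in opposite directions within the numbers (-0.37 and 0.11). Bcas1, a protein of early myelinating cells, differed by -0.05 (SE 0.15).

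The 3 lineage factors all had a lower mean in R-SDS mice, by -0.25 for Olig2, -0.08 for Olig1 and -0.05 for Sox10. Olig2, which specifies the lineage, measured 8.462 and 8.003 in the controls and 8.02 and 7.95 in R-SDS mice (SE 0.18). Control 1 was again the array that stood out, 0.44 above the next highest, and without it the difference of Olig2 was -0.02. Without Control 2 it was -0.48, with an unadjusted p of 0.0431 and an adjusted p of 1 in limma. Olig1, a partner of Olig2 needed for maturation, measured 8.99 and 8.63 in the controls and 8.82 and 8.64 in R-SDS mice. For Sox10, which drives myelin genes, the values were 8.21 and 7.89 in the controls and 8.05 and 7.95 in R-SDS mice. In both genes the R-SDS values lay between those of the control mice.

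The 20 mature genes were lower on average in R-SDS mice for 14 and higher for 6, and their median difference was -0.08. Within number 1 the median was -0.16 and 16 were lower, whereas within number 2 it was 0.02 (0.015 before rounding) and 8 were lower. Of all 30 members 25 were lower within number 1 and 14 within number 2, where 48% and 47.1% of all tested rows were. Over all tested rows the medians within the numbers were 0.01 (0.006) and 0.01 (0.009).

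Genes for the compact myelin sheath and its inner and outer faces were close to the controls. Mbp, the basic protein that holds the membrane layers together, measured 11.07 and 10.89 in the controls and 10.98 and 10.84 in R-SDS mice (difference -0.07, SE 0.14, 95% interval -0.42 to 0.28). Mog, a protein of the outermost layer, measured 9.29 and 9.09 in the controls and 9.11 and 9.07 in R-SDS mice (difference -0.10, SE 0.14). The 3 lower arrays of Mog agreed within 0.04, and Control 1 lay 0.18 above the highest of them.

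Mag, an adhesion molecule on the inner face that touches the axon, measured 10.55 and 10.25 in the controls and 10.41 and 10.27 in R-SDS mice. In Cnp, a protein that keeps cytoplasmic channels open in myelin, the values were 10.49 and 9.96 in the controls and 10.46 and 10.08 in R-SDS mice. For Cnp the mice numbered 1 were about equal and stood above both mice numbered 2, and the gap between the controls (0.52) was far wider than the group difference of 0.04 (SE 0.22). Mobp, a second basic protein, differed by 0.01, the tight junction protein gene Cldn11 by -0.09, the tetraspanin gene Tspan2 by -0.11 and the membrane glycoprotein gene Opalin by -0.02, each with overlapping groups. Opalin differed in opposite directions within the numbers (-0.32 and 0.28).

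Mal was the 1 member for which both R-SDS values exceeded both controls. It encodes a small membrane protein of lipid rafts that sorts proteins to myelin. The values were 10.38 and 10.34 in the controls and 10.44 and 10.46 in R-SDS mice, a difference of 0.09 (SE 0.13). This difference was small but even, at 0.06 within number 1 and 0.13 within number 2, and it had an unadjusted limma p of 0.50.

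The enzymes of myelin lipid, Aspa, Ugt8a and Fa2h, were each lower in the mean of R-SDS mice. Aspa measured 8.08 and 7.90 in the controls and 7.36 and 7.88 in R-SDS mice, a difference of -0.37 (SE 0.20, 95% interval -0.86 to 0.13) and a level 0.776 times that of controls. R-SDS 1 was the array that stood apart, since R-SDS 2 lay only 0.02 below Control 2, and without R-SDS 1 the difference of Aspa was -0.11. Without R-SDS 2 it was -0.62, with an unadjusted p of 0.0137 and an adjusted p of 0.93 in limma. Ugt8a, which makes the glycolipid galactosylceramide, measured 10.20 and 9.99 in the controls and 9.76 and 10.12 in R-SDS mice. R-SDS 1 was lowest for this gene as well, and the difference was -0.16 (SE 0.17) with that array and 0.03 without it. Fa2h, which hydroxylates the fatty acids of myelin lipid, differed by -0.16 (SE 0.19) and by similar amounts within number 1 (-0.17) and number 2 (-0.15).

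The remaining mature genes encode channels, receptors, cytoskeletal proteins and transcription factors. Gjb1, the gap junction protein connexin 32 of the myelin sheath, measured 7.13 and 6.72 in the controls and 6.61 and 6.75 in R-SDS mice (difference -0.25, SE 0.18). The gap of 0.41 between the controls exceeded that difference, and without Control 1 it was -0.04. Ermn, an actin-binding protein of late myelination, measured 9.44 and 9.30 in the controls and 8.89 and 9.46 in R-SDS mice (difference -0.19, SE 0.21). For Ermn the R-SDS mice held both the lowest and the highest value, and without R-SDS 1 the sign turned (0.09).

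Nkx6-2, a homeobox factor of myelinating cells, measured 7.40 and 7.21 in the controls and 7.20 and 7.08 in R-SDS mice (difference -0.16, SE 0.14). R-SDS 1 lay 0.01 below Control 2, so the groups of Nkx6-2 were only just apart, and without Control 1 the difference was -0.07. The lysophosphatidic acid receptor gene Lpar1 had the same mean in both groups (7.91), as did the zinc finger factor gene St18 (7.68). Gpr37, a receptor that restrains differentiation, differed by 0.02, the actin-severing gelsolin gene Gsn by 0.05 and Hapln2, a matrix link protein at nodes of Ranvier, by -0.08.

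**Figure D2:**
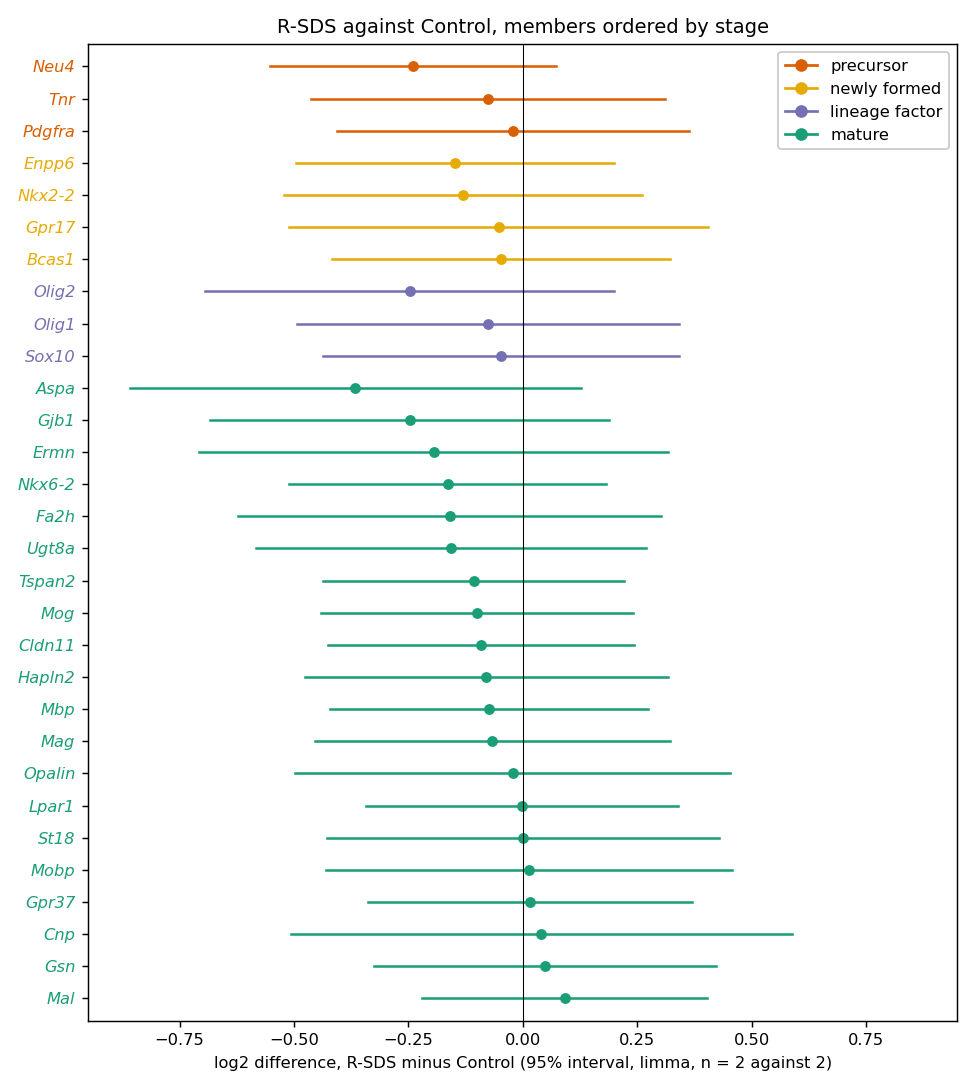
Log2 difference of R-SDS minus Control (horizontal axis) with its 95% interval from limma (2 arrays against 2) for the 30 members (vertical axis), ordered by stage and coloured as in the legend. Every interval of the 30 crosses 0, and the points of the precursor and newly formed genes fall in the range of the mature genes, from -0.24 to -0.02.

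The design also allows precursors to be set against mature cells. The median difference of the 7 precursor and newly formed genes was -0.08 (-0.075), and that of the 20 mature genes was -0.08 (-0.077), so the stages differed by -0.001. The early genes had medians of -0.15 within number 1 and -0.06 within number 2, and the mature genes -0.16 and 0.02. The sign of the median thus turned between the numbers for the mature genes, as it did for the lineage factors (-0.16 and 0.01). The contrast of stages, mature minus precursor, was -0.008 within number 1 and 0.077 within number 2. It ranged from 0.002 (without Control 2) to 0.091 (without R-SDS 2) when 1 array was left out, and no test was applied to it because the genes of a stage are not replicates.

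The gap between the controls was larger than the group difference in 26 of the 30 members, where it was larger in 74.5% of all tested rows. The gap between the R-SDS mice was larger than the group difference in 21 of the 30, against 74.3% of all tested rows. The share for the R-SDS mice is near that over the array, and the share for the controls is somewhat higher. Control 1 exceeded Control 2 in 27 of the 30, where 51.6% of all tested rows did (median of Control 2 minus Control 1, -0.21). Of the marker lists described below, it did so in 9 of 10 astrocyte, 9 of 10 neuron, 8 of 9 microglia, 8 of 9 endothelial and 9 of 9 choroid plexus genes. The gap was thus not particular to this lineage, though only 5 of 10 thalamus and 1 of 4 Schwann cell genes had it. Control 1 was the highest of the 4 arrays in 21 members, where 22.4% of all tested rows had their highest value in Control 1. The gap between the controls also went with brightness on these arrays. Of the tested rows at or above the median level, 73.3% were higher in Control 1 than in Control 2, with a median gap of -0.11, and of the dimmer rows 29.9%. After quantile normalisation, applied to this gap after the values were seen, Control 1 exceeded Control 2 in 28 of the 30 members, where 56.9% of all tested rows did. The median gap was then -0.14 in the members against -0.04 over all tested rows. The brighter rows were not counted apart after this normalisation. Between the R-SDS mice the gap of the members was smaller (R-SDS 2 minus R-SDS 1, median -0.09), with 19 of the 30 higher in R-SDS 1.

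In R-SDS 1 a few genes of the lineage lay well below Control 1. The value of R-SDS 1 was more than 0.4 below that of Control 1 in 5 members, Aspa (-0.72), Ermn (-0.55), Gjb1 (-0.53), Olig2 (-0.44) and Ugt8a (-0.44), where 2.49% of all tested rows were lower by as much. This limit was set after the values were seen. R-SDS 1 was the lowest of the 4 arrays for Aspa, Ermn, Gjb1 and Ugt8a, but not for Olig2, whose R-SDS 1 value lay above those of Control 2 and R-SDS 2 and whose difference rested on the high Control 1. The other members differed within number 1 by -0.37 (Nkx2-2) to 0.07 (Mobp). Within number 2 no member was lower by more than 0.4, and the 5 genes differed by -0.02 (Aspa), 0.16 (Ermn), 0.03 (Gjb1), -0.05 (Olig2) and 0.13 (Ugt8a). Over the 30 members the differences within the numbers correlated at -0.20 (Pearson, across genes, which are not independent replicates), and over all tested rows at 0.02.

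**Figure D3:**
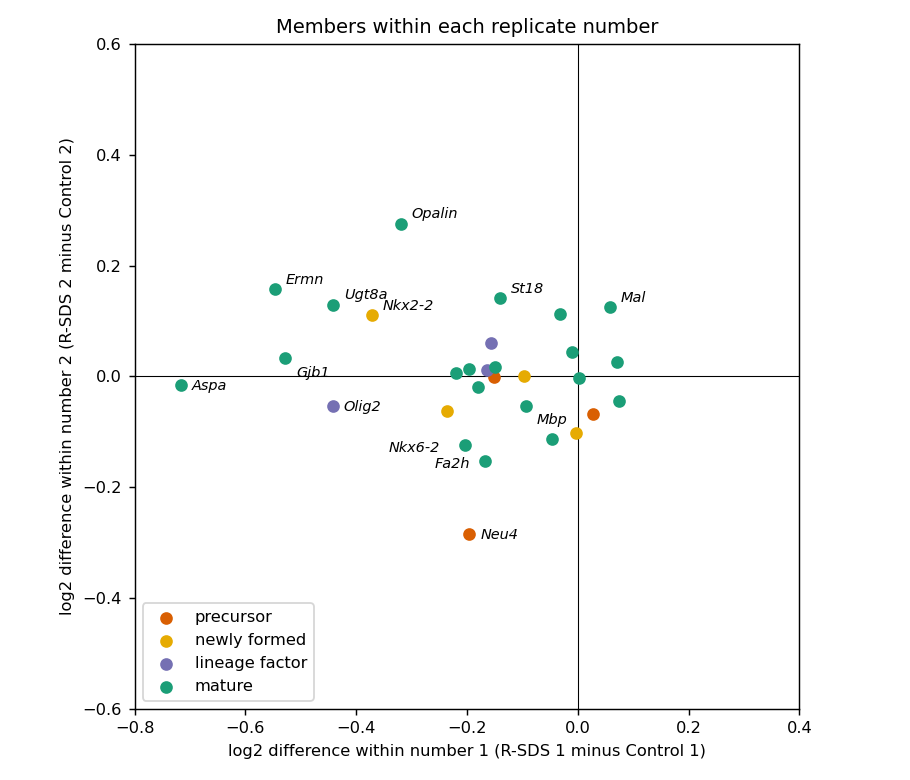
Log2 difference of each member, R-SDS 1 minus Control 1 on the horizontal axis and R-SDS 2 minus Control 2 on the vertical axis, 1 point per gene, coloured by stage as in the legend and with selected genes named. Aspa, Ermn, Gjb1, Olig2 and Ugt8a lie far to the left with values near or above 0 on the vertical axis, while Neu4 is the member lowest within number 2 (-0.28).

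R-SDS 1 is also the array in which markers of the choroid plexus, the epithelium lining parts of the ventricles beside the hippocampus, were high. All 9 measured markers of 10 fixed had their highest value there. Their summed level (log2 of the sum of the linear values) was 11.65 and 9.11 in the controls and 13.70 and 9.70 in R-SDS mice. This sum is weighted to Ttr, the brightest of them, at 11.38 and 7.43 in the controls and 13.21 and 8.79 in R-SDS mice. Control 2 minus Control 1 was -3.95 for Ttr, but only -1.52 (Kcnj13) to -0.05 (Otx2) for the other markers. Endothelial markers were highest in R-SDS 1 for 7 of 9 measured genes, with summed levels of 11.22 and 11.05 in the controls and 11.53 and 11.14 in R-SDS mice. The part of these markers in the low R-SDS 1 values of Aspa, Ermn, Gjb1 and Ugt8a was not tested.

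The promoters of 5 members are shown because these genes carry the patterns above: Aspa, Ermn and Ugt8a were low in R-SDS 1 alone, Neu4 was lower in both R-SDS mice and Mal higher in both. Gjb1 and Olig2 are not shown. Each sequence is the 250 bases before the RefSeq start of the gene (build GRCm38.p6), written 5′ to 3′ on the strand of the gene. Capitals mark matches, on either strand, to ACAAAG or ACAATG, cores bound by SOX factors, or to CAGCTG, an E-box core bound by factors such as Olig2.
Aspa, chr11:73324638-73324887, minus strand: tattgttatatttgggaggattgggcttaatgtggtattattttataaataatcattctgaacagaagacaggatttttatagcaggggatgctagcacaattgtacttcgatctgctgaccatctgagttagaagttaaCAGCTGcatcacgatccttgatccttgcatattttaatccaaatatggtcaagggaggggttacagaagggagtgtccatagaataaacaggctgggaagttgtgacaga
Ermn, chr2:58052865-58053114, minus strand: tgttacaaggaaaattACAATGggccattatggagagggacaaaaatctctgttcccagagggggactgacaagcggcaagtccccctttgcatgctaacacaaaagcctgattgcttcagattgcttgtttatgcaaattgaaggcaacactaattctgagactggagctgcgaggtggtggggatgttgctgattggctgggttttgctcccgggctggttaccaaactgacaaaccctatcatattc
Ugt8a, chr3:125938653-125938902, minus strand: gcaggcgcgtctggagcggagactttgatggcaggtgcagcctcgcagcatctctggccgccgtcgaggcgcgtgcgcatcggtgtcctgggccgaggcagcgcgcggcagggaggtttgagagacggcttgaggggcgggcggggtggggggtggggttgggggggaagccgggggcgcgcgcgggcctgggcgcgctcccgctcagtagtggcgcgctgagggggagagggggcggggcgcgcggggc
Neu4, chr1:94020243-94020492, plus strand: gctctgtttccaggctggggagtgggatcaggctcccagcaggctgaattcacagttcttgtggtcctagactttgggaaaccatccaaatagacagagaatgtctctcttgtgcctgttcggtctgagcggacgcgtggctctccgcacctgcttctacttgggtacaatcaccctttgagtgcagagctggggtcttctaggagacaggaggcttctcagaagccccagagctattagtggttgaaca
Mal, chr2:127656696-127656945, minus strand: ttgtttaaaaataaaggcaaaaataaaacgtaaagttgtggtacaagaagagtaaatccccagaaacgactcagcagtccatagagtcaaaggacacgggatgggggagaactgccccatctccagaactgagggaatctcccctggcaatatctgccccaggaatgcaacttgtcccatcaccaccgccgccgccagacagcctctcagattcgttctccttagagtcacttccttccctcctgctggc

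The window of Aspa held 1 CAGCTG and that of Ermn 1 ACAATG, and the windows of Ugt8a, Neu4 and Mal held none of the motifs. Among all 32851 RefSeq windows of this length, 16.5% held ACAAAG, 10.7% held ACAATG and 13% held CAGCTG. RefSeq windows were at hand for 23 of the 30 members (33 windows, several for some genes), of which 11 held ACAAAG, 6 held ACAATG and 4 held CAGCTG. The motifs do not overlap one another in the printed windows. Aspa, Ermn and Ugt8a thus had no searched motif in common in these windows.

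Other genes of the lineage, from 2 lists that hold none of the members, were counted in the same way. Of 47 further genes of mature cells 44 were measured, 29 of them lower and 15 higher after R-SDS (median difference -0.05). The groups did not overlap for 11 of these, each lower in R-SDS mice, where 9.06% of all tested rows did not overlap in that direction. Control 1 lay above Control 2 in 40 of the 44. At an adjusted p 0 passed by limma. Erbb3, a neuregulin receptor of the lineage, was the 1 gene of the 44 past an unadjusted limma p of 0.05. Over all tested rows 1.01% passed, 0.546% with R-SDS lower. For Erbb3 limma gave an unadjusted p of 0.0445 and an adjusted p of 1. With every array kept, the unadjusted limma p was 0.0294 with a replicate block, 0.0269 after quantile normalisation and 0.0392 with dim rows left out. In the methods' t-test it was 0.131. For Erbb3 a limma p under 0.05 did not hold for every choice of array left out. The difference then ran from -0.55 (without Control 2) to -0.24 (without Control 1). Of 23 further precursor genes 20 were measured, with 13 lower and 7 higher, a median of -0.05 (-0.045) and 0 past an unadjusted p of 0.05 by limma.

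Erbb3 measured 7.60 and 7.30 in the controls and 7.02 and 7.09 in R-SDS mice. This was a difference of -0.39 (SE 0.16), lower within both numbers (-0.58 and -0.20) and between -0.55 and -0.24 with any 1 array left out. Both R-SDS values of Erbb3 lay at least 0.20 below both controls. After Erbb3, the largest differences among the genes whose groups did not overlap were those of the semaphorin gene Sema4d (-0.24), the transporter gene Slc45a3 (-0.24) and Qdpr (-0.21), an enzyme that regenerates tetrahydrobiopterin. With 1 array left out Slc45a3 differed by -0.41 (without Control 1) to -0.07 (without Control 2), and Qdpr by -0.31 (without Control 2) to -0.10 (without Control 1). Slc45a3 lay at 5.41 to 5.84, below the median of the tested rows (6.53 to 6.58). The groups of Qdpr were only just apart, with a difference of -0.008 within number 2. A dimmer row of Sema4d differed by -0.29.

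Myrf, the transcription factor that switches on myelin genes in mature oligodendrocytes, was chosen after its values were seen. It measured 8.24 and 8.26 in the controls and 8.07 and 8.06 in R-SDS mice, a difference of -0.19 (SE 0.13). The mice of each group agreed within 0.02, and the difference was between -0.20 and -0.18 with any 1 array left out, with an unadjusted p of 0.19 in limma and of 0.00271 in the methods' t-test (adjusted p = 1 in both). Rras2, a small GTPase of differentiating cells, was the 1 gene of the further precursor list without overlap, at 7.64 and 7.60 in the controls and 7.86 and 7.65 in R-SDS mice (difference 0.13, SE 0.14). Without R-SDS 1 the difference of Rras2 was 0.03.

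**Figure D4:**
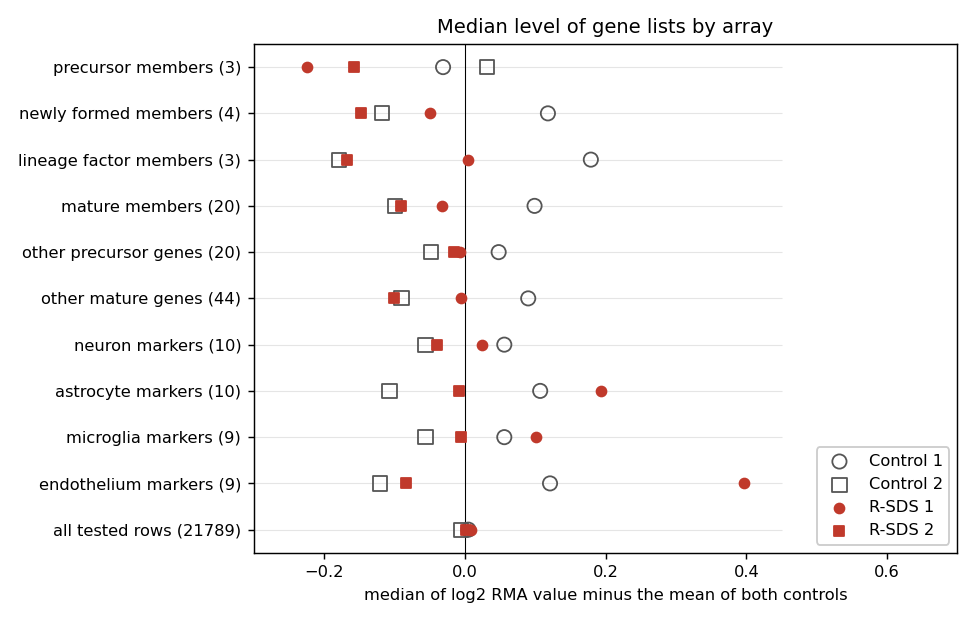
Median over the genes of each list (number of measured genes in brackets) of the log2 RMA value relative to the control mean (horizontal axis), with open circles and squares for Control 1 and Control 2 and filled red circles and squares for R-SDS 1 and R-SDS 2. The median of the mature members stands at 0.10 in Control 1 and at -0.10, -0.03 and -0.09 in Control 2, R-SDS 1 and R-SDS 2, while that of astrocyte markers is highest in R-SDS 1 (0.19). Choroid plexus, Schwann cell and thalamus lists are not drawn.

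Markers of other cells were set beside the lineage. The 10 neuron markers had a median difference of 0.00 (-0.004) and summed levels of 14.76 and 14.68 in the controls and 14.76 and 14.69 in R-SDS mice. They include Prox1 of dentate granule cells, at 8.30 to 8.49 over the 4 arrays, and Neurod6 of pyramidal neurons, at 10.02 to 10.35. Both genes were well above the median of the tested rows (6.53 to 6.58). The 10 astrocyte markers differed by a median of 0.10, with 8 higher in R-SDS mice and summed levels of 13.62 and 13.50 in the controls and 13.72 and 13.54 in R-SDS mice. The 9 measured microglia markers of 10 differed by a median of 0.05, with summed levels of 11.15 and 11.06 in the controls and 11.25 and 11.16 in R-SDS mice.

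Genes of peripheral myelin from Schwann cells, of which 4 of 6 were measured, differed by a median of -0.07. Pmp2 among them was dim, at 3.53 to 3.86 where the lower quartile of the tested rows was 4.88 to 5.08. Of 10 genes listed for the thalamus that borders the hippocampus, 7 were lower and 3 higher in R-SDS mice (median -0.06). The largest difference was that of the calcium-binding protein gene Calb2, which measured 8.04 and 8.04 in the controls and 7.35 and 7.87 in R-SDS mice. Calb2 was thus also lowest in R-SDS 1, with a difference of -0.43 (SE 0.19). The other genes of the list differed by only -0.14 (Prkcd) to 0.16 (Lef1). Summed levels of this list were 10.80 and 10.74 in the controls and 10.63 and 10.70 in R-SDS mice. Summed over all 30 members the levels were 14.26 and 14.05 in the controls and 14.13 and 14.07 in R-SDS mice, so that both R-SDS values lay between the controls.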

How the data were processed

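Gene expression was measured in hippocampal RNA of 2 Control and 2 R-SDS samples on Affymetrix Mouse Gene 1.0 ST arrays. The authors deposited log2 values, summarised by RMA with the Affymetrix Expression Console according to the submitters' processing notes. The genome build was not given in the sources used here. Sample titles gave the group and number of each array. The study's methods speak of 2 mice analysed for R-SDS, and arrays are treated as separate mice.

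Of 35556 rows, 21789 had 1 gene symbol (19938 genes) and were tested, 1621 had several and 12146 were not listed. Of the symbols, 99.6% matched RefSeq (GRCm38.p6) by Entrez identifier, and 0 changed. A gene was represented by its brightest row. R-SDS was compared with Control with limma 3.58.1 in R 4.3.3, two-sided, without a block (2 residual and 4.07 prior degrees of freedom), and adjusted by Benjamini-Hochberg. The procedure was tested on simulated data. Replicate block, single arrays left out, quantile normalisation, a filter on dim rows, the mean of all rows of a gene, precursor genes without newly formed ones and the methods' t-test were alternatives. No depth exists for arrays, and their number limits the precision. The members, stages and gene lists were chosen with earlier results of these data known.

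All members are named. Values in every array are given for a fixed set of key genes and for members with a difference of at least 0.2 or without overlap between groups. Other lineage genes are named for the largest differences without overlap or an unadjusted p under 0.05. Ermn and Ugt8a were given in full after their values were seen, as were the marker genes named and Myrf. Figures were drawn with matplotlib 3.10.9.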

Additional observations from a re-analysis of the deposited data

How the results depend on the processing

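Under each alternative (replicate block, any single array left out, quantile normalisation, dim rows left out and the methods' t-test), 0 of the 30 members passed an adjusted p of 0.05 by limma or that t-test. At an unadjusted p under 0.05 the count was 1 of 30 in the methods' t-test, where 440 of all 21789 rows passed. With 1 array left out, the lone array of a group is assumed to vary like the other group. The labels do not say that a replicate number pairs mice. Deviations from the group means correlated at 0.52 between Control 1 and R-SDS 1 over the tested rows, and limma with a replicate block called 0 members at the adjusted p and 1 (Neu4) at an unadjusted p under 0.05, against 0 without it, and over all rows 1047 against 221 at the unadjusted p. The number of members whose groups did not overlap was 5, was 9 after quantile normalisation and ran from 14 to 23 with 1 array left out, where fewer arrays must be separated. The median of the mature members ran from -0.195 to 0.018 with 1 array left out, that of the precursor and newly formed members from -0.196 to -0.025, and mature minus precursor from 0.002 to 0.091. The lowest values of both medians came without Control 2. The cause was not tested.

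The sign of the difference held with any 1 array left out for 9 of the 30 members. Of these, 8 were lower, with ranges of -0.27 to -0.209 (Neu4), -0.26 to -0.0376 (Enpp6), -0.477 to -0.0181 (Olig2), -0.624 to -0.107 (Aspa), -0.454 to -0.0401 (Gjb1), -0.261 to -0.0666 (Nkx6-2), -0.176 to -0.0394 (Tspan2) and -0.18 to -0.00222 (Cldn11), and 1 was higher (Mal, 0.0693 to 0.113). For the others it turned for at least 1 array left out, and their differences ran from -0.225 to 0.074 (Tnr), -0.158 to 0.117 (Pdgfra), -0.266 to 0.00559 (Nkx2-2), -0.246 to 0.141 (Gpr17), -0.172 to 0.0762 (Bcas1), -0.256 to 0.103 (Olig1), -0.208 to 0.113 (Sox10), -0.479 to 0.0898 (Ermn), -0.337 to 0.0173 (Fa2h), -0.338 to 0.0259 (Ugt8a), -0.201 to 0.00116 (Mog), -0.221 to 0.061 (Hapln2), -0.165 to 0.0178 (Mbp), -0.219 to 0.0869 (Mag), -0.278 to 0.233 (Opalin), -0.0752 to 0.0739 (Lpar1), -0.203 to 0.204 (St18), -0.173 to 0.203 (Mobp), -0.0839 to 0.117 (Gpr37), -0.221 to 0.303 (Cnp) and -0.0686 to 0.165 (Gsn). After quantile normalisation the sign turned for St18 (-0.00856) and Mobp (-0.0046).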
